A study of Mus musculus with 4 samples.

Results

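Hedgehog signaling was examined in the posterior epiblast of wild type (WT) mouse embryos through 9 genes, the ligands Shh and Ihh, the receptor Ptch1, the co-receptor Boc, the ligand-binding protein Hhip, the transducer Smo and the transcription factors Gli1, Gli2 and Gli3. They were taken by gene name from a table of 53397 genes, and all 9 were in it. The posterior epiblast is the region at the caudal end of the embryo that holds the progenitors of the axis, and it was dissected at embryonic day 7.5 (E7.5), before trunk formation starts, and at E8.5, once it is under way. There were 2 libraries per stage, each from pooled tissue that the study describes as a separate biological replicate, and all 4 were wild type with no treatment. How many embryos went into each pool is not given in the sources used here, and a dissected region can hold other cells beside the epiblast.

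Hedgehog ligands are secreted, lipid-modified proteins. Without ligand, Ptch1 holds the membrane protein Smo inactive, and the Gli2 and especially Gli3 proteins are cut into repressors. Ligand bound to Ptch1, with help from co-receptors such as Boc, Cdon and Gas1, frees Smo to act at the primary cilium, and the Gli proteins then activate genes that include Gli1, Ptch1 and Hhip. Since Ptch1 and Hhip both bind ligand, they limit the signal that induces them. In the mouse embryo of these stages, Shh is known from the node, the notochord and the gut endoderm, and Ihh from the visceral endoderm and the node.

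Values are normalized counts, reads per gene scaled by the depth of the library, and the reads assigned to genes numbered from 18488218 to 19493342 per library. A single read was worth between 0.0507 and 0.0562 normalized counts. The stages were compared on log2(value + 1) with limma over 13903 genes that reached a value of 1 in 2 or more libraries, and all 9 Hedgehog genes were among them. Rises and falls are changes at an adjusted p under 0.05, and each fold change sets E8.5 over E7.5. The most abundant gene of the table, CT010467, took between 18.5% and 25.6% of the total, and scaling without it left the call of each of the 9 genes as it was. The smallest p of an exact two-sided permutation test with 2 libraries per stage is 0.333, so every call depends on limma's pooling of the spread over genes.

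Of the 9 Hedgehog genes, 5 rose between E7.5 and E8.5 and none fell. Those that rose were the ligand Shh, the receptor and target gene Ptch1, the targets Gli1 and Hhip, and Gli3. Ihh, Smo, Gli2 and Boc did not pass the test. Among all genes tested, 25.6% rose and 26.4% fell. By a log2 fold change of at least 1 as well, 3 of the 9 rose, Shh, Ptch1 and Gli1, against 4.48% of all genes tested, while 6.35% of all genes fell by that much. Both E8.5 values lay above both E7.5 values in 5 of the 9 genes and below them in 1, Boc, against 37.2% and 39.1% of all genes. The 9 genes had a median log2 fold change of 0.61, and all genes tested one of -0.0074. These genes and the lists below were chosen with results of these libraries known, so the counts describe them and are not tested as a set. In pooled tissue, fewer cells of a type and less RNA per cell cannot be told apart.

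**Figure D1:**
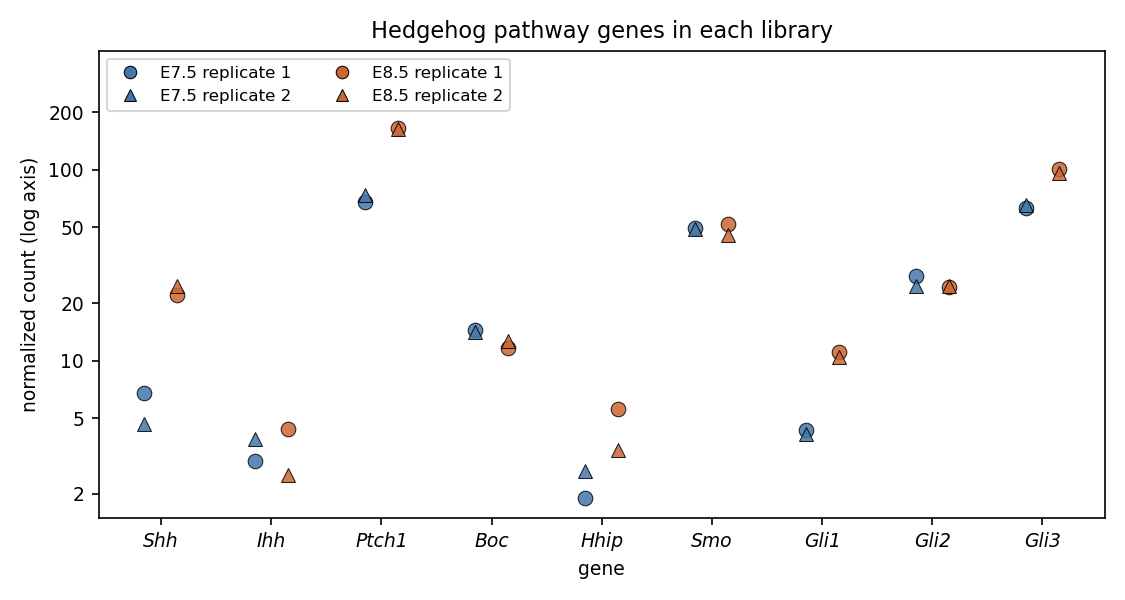
Normalized count (log axis) of the 9 Hedgehog genes in each of the 4 libraries, with E7.5 in blue, E8.5 in orange, circles for replicate 1 and triangles for replicate 2. Shh, Ptch1, Gli1, Gli3 and Hhip have both E8.5 points above both E7.5 points, while the points of Ihh, Smo and Gli2 from the 2 stages overlap.

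Shh had the largest change of the 9 genes. Its normalized count was 6.74 and 4.67 in the E7.5 libraries (120 and 92 reads), and 21.9 and 24.7 in the E8.5 libraries (418 and 473 reads). The lowest E8.5 value was thus more than 3 times the highest E7.5 value, well outside the spread within either stage. The stage means were 5.71 ± 1.47 and 23.3 ± 1.95 (SD, n = 2 libraries each), a ratio of 4.09. On the log2(value + 1) scale the fold change was 1.87 (standard error 0.15, 95% interval 1.55 to 2.20, adjusted p = 8.8e-08), above that of 99% of all genes tested. Shh lies on chromosome 5 of GRCm38 (28456815 to 28467256, minus strand). The noncoding genes 9530036O11Rik and Gm26894 overlap it on the opposite strand, and the libraries do not keep the strand. The first had normalized counts of 0.157 or less, and Gm26894 was not analysed here.

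Ihh was low at both stages. It had 2.98 and 3.91 at E7.5 (53 and 77 reads) and 4.36 and 2.51 at E8.5 (83 and 48 reads). The E7.5 values lay between those of the E8.5 replicates, so the stages overlapped, and the widest gap was between replicates of E8.5. Its counting intervals (exact Poisson, 95%) at E8.5 were 3.47 to 5.40 and 1.85 to 3.32, which do not meet. The fold change was -0.028 on the log2 scale (standard error 0.20, 95% interval -0.46 to 0.41, adjusted p = 0.92), an interval that leaves room for a change of either sign at this depth. The gene lies on chromosome 1 (74945315 to 74951672, minus strand).

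Per kilobase of merged exons, the ratio of Shh to Ihh within a library was 2.42 and 1.28 at E7.5, then 5.39 and 10.5 at E8.5. Such a ratio does not depend on how libraries are scaled to each other. Shh was the higher of the ligands in every library, and the ratio was higher in both E8.5 libraries than in either of E7.5, with a wide spread at E8.5, where Ihh also had its widest. The remaining ligand, Dhh, had 0 reads at E7.5 and 1 read in each E8.5 library, too few to compare.

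Lists of markers were read for the cell types known to make Shh or Ihh. Genes on these lists can be made by other cells too, so the counts do not measure the number of such cells. Of 11 markers of the node and notochord, 7 fell and 2 rose, against 26.4% and 25.6% of all genes tested. Their median log2 fold change was -1.0, and their summed normalized count was 116 to 121 at E7.5 and 98.1 to 98.4 at E8.5. Those that rose were Nog, a BMP antagonist, and Fgf8, a growth factor that is also made in the primitive streak and is on the epiblast list as well. Fgf8 went from 17.1 ± 0.533 to 44.2 ± 1.47 (SD, n = 2 each) and made up a large part of the E8.5 sum. Foxa2, a regulator of Shh in the node, notochord and floor plate, had 15.4 and 16.8 at E7.5, then 11.0 and 9.97 at E8.5, and fell by 0.58 on the log2 scale (adjusted p = 0.0011). Foxj1, the regulator of motile cilia at the node, fell from 22.1 and 20.7 to 0.525 and 0.731. Noto, a notochord factor, had 12.1 and 11.2 at E7.5 against 8.34 and 10.3 at E8.5 (adjusted p = 0.080). Sox9, which is also made in the notochord, had 13.8 and 12.8 against 10.7 and 11.0 (adjusted p = 0.080). Neither Noto nor Sox9 was called. Besides Foxa2 and Foxj1, the listed genes that fell were Chrd, Foxd4, Cer1, Dand5 and Pkd1l1. The list pools node and notochord, so its count does not show a fall of the notochord, and a change of the notochord alone was not tested.

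Of 12 markers of gut endoderm, 9 fell and 2 rose, against 26.4% and 25.6% of all genes tested. Their sum was 1193 to 1235 at E7.5 and 742 to 767 at E8.5. The keratin gene Krt19 rose by 1.51 on the log2 scale and Cpm by 0.41, while the most abundant markers Krt8, Krt18, Cldn6 and Epcam fell by 0.28, 0.65, 0.68 and 1.16. Foxa1, a factor of endoderm, had 5.85 and 5.22 at E7.5, then 6.03 and 6.68 at E8.5 (adjusted p = 0.36). Of 8 markers of the floor plate, the Shh-producing ventral midline of the neural tube, 4 were tested. Foxa2 and Ntn1 fell and Nkx6-1 rose, and the sums of the list were 51.9 to 60.5 at E7.5 and 33.9 to 34.9 at E8.5. Nkx6-1 reached the minimum value for the test only at E8.5. Spon1, a secreted floor plate protein, had 11.6 in both E7.5 libraries against 11.5 and 11.96 at E8.5 (adjusted p = 0.92), and Ferd3l, another marker on the list, had 0 reads in every library. The list of visceral endoderm, a known source of Ihh, fell most. All 14 tested of its 15 markers fell, among them Apoe, Apob, Cubn and Apoa1. Its sum went from between 3336 and 3443 to between 412 and 429. The remaining marker, Apoc2, had at most 2 reads. Foxa2 is on the node, gut and floor plate lists, and Epcam on those of gut and epiblast. The part of each cell type in the values of Shh and Ihh was not tested.

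**Figure D2:**
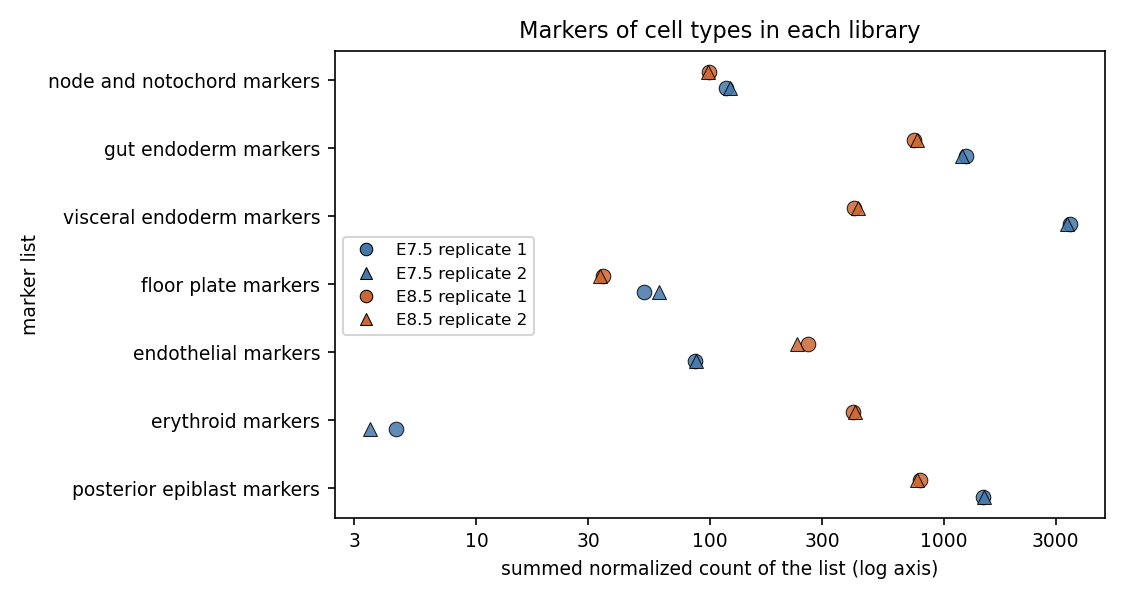
Summed normalized count (log axis) of each list of cell type markers in the 4 libraries, with E7.5 in blue, E8.5 in orange, circles for replicate 1 and triangles for replicate 2. Sums for the node, gut, visceral endoderm, floor plate and epiblast lists are lower in both E8.5 libraries, and those of endothelium and erythroid cells are higher.

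The labelled tissue was checked with 11 genes of the posterior epiblast, among them Nkx1-2, Cdx2, Epcam and Cdx1. All were present at E7.5, but Fgf5 was almost absent at E8.5, with 3 and 0 reads against 101 and 160 at E7.5. Cdx2 had between 227 and 260 in each library at both stages. As a group they were lower at E8.5, with 8 that fell and 1 that rose, and sums of 1469 to 1479 against 765 to 790. Endothelial markers went from between 86.0 and 86.7 to between 235 and 260, with 9 of 10 higher, Kdr, Egfl7 and Tek among them, and Flt1 not called. Erythroid markers, led by the embryonic globins Hbb-bh1, Hba-x and Hbb-y, went from between 3.50 and 4.55 to between 410 and 415, with all 7 tested of 8 higher, Alas2 included. These sums moved with the stage in the same libraries as the Hedgehog genes, and their part in the results was not tested.

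Ptch1, both the receptor of the ligands and a direct target of the pathway, had the highest level per kilobase of merged exons among the 9 genes at E8.5. It had 68.0 and 74.0 at E7.5 (1209 and 1459 reads) and 166 and 164 at E8.5 (3162 and 3139 reads). The replicates of E8.5 differed by less than their counting error, and both were more than 2 times the E7.5 values. The means were 71.0 ± 4.27 and 165 ± 1.44 (SD, n = 2 each), and the log2 fold change was 1.21 (standard error 0.066, 95% interval 1.07 to 1.35, adjusted p = 1.0e-09). Ptch1 lies on chromosome 13 (63508328 to 63573598, minus strand), where A930032L01Rik overlaps it with normalized counts of 1.15 or less.

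Gli1, a transcriptional activator whose own gene depends on Hedgehog signaling, rose as well, from few reads. It had 4.33 and 4.11 at E7.5 (77 and 81 reads) and 11.1 and 10.4 at E8.5 (211 and 200 reads). The replicates lay close together and the stages far apart. The means were 4.22 ± 0.155 and 10.8 ± 0.445 (SD, n = 2 each), a ratio of 2.55 against 2.32 for Ptch1. The log2 fold change was 1.17 (standard error 0.14, 95% interval 0.86 to 1.48, adjusted p = 7.8e-06). With a pseudocount of 4 it was 0.84, under the log2 threshold of 1 but still called. Gli1 lies on chromosome 10 (127329882 to 127341974, minus strand), where it overlaps Arhgap9 on the opposite strand. Arhgap9 had 0.899, 0.964, 2.52 and 1.57 in the same order of libraries, and reads of the overlap cannot be told apart by strand.

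Hhip, a membrane protein that binds and sequesters Hedgehog ligands and is induced by them, had the lowest level per kilobase of merged exons of the 9 at both stages. It had 1.91 and 2.64 at E7.5 (34 and 52 reads) and 5.56 and 3.39 at E8.5 (106 and 65 reads). The stages did not overlap, but the lower E8.5 value and the higher E7.5 value had counting intervals that did, 2.62 to 4.33 and 1.97 to 3.46. The means were 2.27 ± 0.514 and 4.48 ± 1.53 (SD, n = 2 each), with a change of 0.72 in log2 units (standard error 0.20, 95% interval 0.29 to 1.15, adjusted p = 0.0076). The call rests on E8.5 replicate 1: without it the fold change was 0.43 and the adjusted p 0.13. With no filter on low values the adjusted p was 0.15. Hhip lies on chromosome 8 (79965851 to 80058006, minus strand).

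The stretches before the annotated starts of Ptch1 and Hhip, which rose, and of Smo, which was not called, are shown so that the promoters of the receptor, the feedback gene and the transducer can be compared. Each is the 250 bases before the start in RefSeq (GRCm38.p6), which had a promoter for 6 of the 9 genes. Gli proteins are known to bind GACCACCCA, and capitals mark the stretch with the fewest mismatches to it on either strand, the first such stretch where there were several.
Ptch1, chr13:63565736-63565985, minus strand: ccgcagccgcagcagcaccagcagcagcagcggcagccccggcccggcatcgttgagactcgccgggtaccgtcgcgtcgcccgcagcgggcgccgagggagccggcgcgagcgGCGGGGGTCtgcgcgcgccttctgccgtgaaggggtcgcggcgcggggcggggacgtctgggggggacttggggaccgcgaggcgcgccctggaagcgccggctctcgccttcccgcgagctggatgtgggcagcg
Hhip, chr8:80058009-80058258, minus strand: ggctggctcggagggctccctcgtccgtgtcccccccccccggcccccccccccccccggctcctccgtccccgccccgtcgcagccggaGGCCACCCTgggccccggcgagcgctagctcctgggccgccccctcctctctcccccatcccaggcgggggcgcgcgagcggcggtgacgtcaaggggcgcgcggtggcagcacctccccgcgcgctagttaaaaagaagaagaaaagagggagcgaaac
Smo, chr6:29735247-29735496, plus strand: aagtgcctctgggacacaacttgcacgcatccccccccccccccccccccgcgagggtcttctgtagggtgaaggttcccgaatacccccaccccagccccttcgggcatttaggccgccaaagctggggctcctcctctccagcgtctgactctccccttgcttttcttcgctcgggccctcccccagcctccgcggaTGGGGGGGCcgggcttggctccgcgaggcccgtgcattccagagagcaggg
The marked stretch differed from the motif at 3 bases in Ptch1, 136 bases before the start, at 2 in Hhip, 160 before, and at 2 in Smo, 51 before. In Ptch1, 4 stretches had that many mismatches. None of the 6 promoters held the motif itself or its last 7 letters, CCACCCA, on either strand. Of 32851 promoters of the same length, 0.225% held the motif, 8.11% the 7 letters, and 51.8% a stretch with at most 2 mismatches. The marked stretches therefore do not set these promoters apart, and a site outside the 250 bases was not searched for. The start used for Ptch1 lies inside the gene as GENCODE vM21 draws it, which reaches further upstream. The Ptch1 promoter had 41 CG dinucleotides, against 28 in Hhip and 15 in Smo.

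Smo, the membrane protein that passes the signal on to the Gli factors, kept to a narrow range. It had 49.4 and 49.0 at E7.5 (879 and 967 reads) and 51.9 and 45.5 at E8.5 (989 and 872 reads). Both E7.5 values lay between the E8.5 replicates, so the stages overlapped. The log2 fold change was -0.018 (standard error 0.082, 95% interval -0.19 to 0.16, adjusted p = 0.87), an interval that bounds the change at well under the change of Ptch1. Smo lies on chromosome 6 (29735503 to 29761365, plus strand).

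Boc, a cell surface co-receptor that helps ligand to reach Ptch1, had 14.5 and 14.0 at E7.5 (258 and 277 reads) and 11.6 and 12.7 at E8.5 (221 and 244 reads). Both E8.5 values were lower, yet the difference did not pass the test. The log2 fold change was -0.22 (standard error 0.12, 95% interval -0.47 to 0.042, adjusted p = 0.15). Boc lies on chromosome 16 (44485049 to 44558897, minus strand).

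Among the Gli factors, Gli3, known above all as a repressor in the absence of ligand, had the highest level per kilobase of merged exons. It had 63.1 and 65.0 at E7.5 (1122 and 1282 reads) and 100.4 and 96.0 at E8.5 (1914 and 1839 reads). The gap between stages was many times the gap between replicates. The means were 64.0 ± 1.38 and 98.2 ± 3.13 (SD, n = 2 each), with a change of 0.61 in log2 units (standard error 0.068, 95% interval 0.46 to 0.75, adjusted p = 2.8e-06). Gli3 lies on chromosome 13 (15463235 to 15730026, plus strand).

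Gli2, the main activator of the family downstream of Smo, did not pass the test. It had 27.6 and 24.5 at E7.5 (491 and 484 reads) and 24.4 and 24.7 at E8.5 (465 and 473 reads). E7.5 replicate 1 stood above the other libraries, which lay close together. The log2 fold change was -0.081 (standard error 0.098, 95% interval -0.29 to 0.13, adjusted p = 0.51). Gli2 lies on chromosome 1 (118834132 to 119053619, minus strand).

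**Figure D3:**
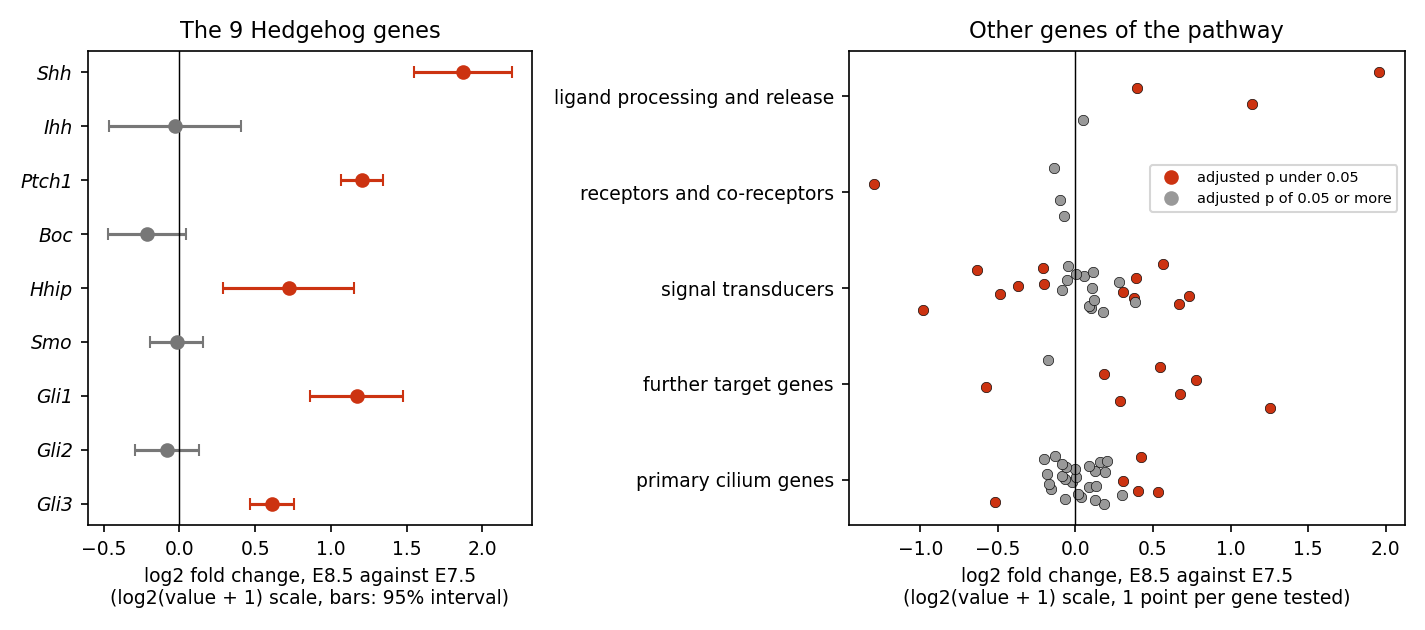
Log2 fold change at E8.5 against E7.5 on the log2(value + 1) scale, for the 9 Hedgehog genes with 95% intervals (left) and for each tested gene of 5 lists of other pathway genes (right), in red at an adjusted p under 0.05 and grey otherwise. Shh has the highest value on the left at 1.87, and the receptor list holds the lowest on the right, Lrp2 at -1.30.

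Levels per kilobase of merged exons put the genes on a common scale. At E7.5 the order was Smo at 8.76 ± 0.0455, Gli3 at 6.68 ± 0.144, Ptch1 at 5.0 ± 0.301, Gli2 at 3.8 ± 0.314, Boc at 3.21 ± 0.0719, Shh at 2.0 ± 0.516, Ihh at 1.13 ± 0.215, Gli1 at 0.844 ± 0.0311 and Hhip at 0.251 ± 0.0566 (SD, n = 2 libraries). No neighbours in that order had values that overlapped. At E8.5 it was Ptch1 at 11.6 ± 0.101, Gli3 at 10.2 ± 0.326, Smo at 8.67 ± 0.801, Shh at 8.19 ± 0.686, Gli2 at 3.57 ± 0.0304, Boc at 2.73 ± 0.182, Gli1 at 2.15 ± 0.0892, Ihh at 1.13 ± 0.429 and Hhip at 0.493 ± 0.169. There Smo and Shh overlapped, and their order is not set. On this scale the receptor Ptch1 thus moved above Smo and Gli3, and the ligand Shh above Gli2 and Boc. The lengths merge all annotated isoforms, from 2847 bases for Shh to 14185 for Ptch1, so a gene that uses short isoforms is understated.

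Ratios of the same per-kilobase levels within a library do not depend on scaling between libraries. The receptor Ptch1 stood at 0.545 and 0.598 of its partner Smo at E7.5, then at 1.27 and 1.43 at E8.5, so the ratio rose. Which of the pair is the more abundant depends on the length taken for Ptch1. Not divided by length, Ptch1 was above Smo at E7.5 already, with 68.0 and 74.0 against 49.4 and 49.0. Boc to Ptch1 went from 0.680 and 0.605 to 0.223 and 0.248, a fall in the ratio that came with the rise of Ptch1. Hhip to Ptch1 overlapped between stages, at 0.0440 and 0.0557 against 0.0524 and 0.0324. Gli1 to Gli2 was 0.216 and 0.230 at E7.5, then 0.624 and 0.581 at E8.5, and Gli3 to Gli2 was 1.64 and 1.90 against 2.95 and 2.79. Of the summed level of the Gli genes, Gli1 made up 7.56% and 7.36% at E7.5, then 13.6% and 13.3% at E8.5, while Gli2 went from 35.1% and 32.0% to 21.9% and 22.9%. Gli3 held 57.4% and 60.7% at E7.5, then 64.5% and 63.8% at E8.5. These are shares of transcript, and the balance of full-length and cut Gli protein was not measured.

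**Figure D4:**
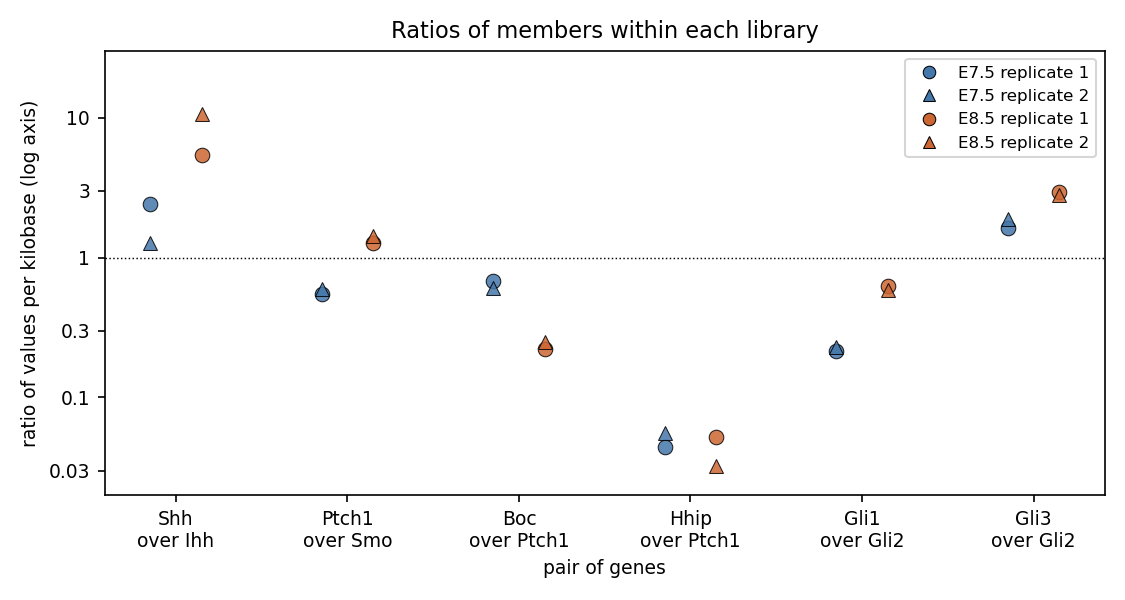
Ratio of values per kilobase (log axis) for 6 pairs of Hedgehog genes within each library, with E7.5 in blue, E8.5 in orange, circles for replicate 1 and triangles for replicate 2, and a dotted line at equal levels. With the merged exon lengths used, Ptch1 over Smo crosses that line, from at most 0.598 at E7.5 to at least 1.27 at E8.5. The points of Hhip over Ptch1 overlap.

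Of 6 genes listed for processing and release of the ligands, 4 were tested, of which 3 rose and none fell, against 25.6% and 26.4% of all genes tested. Their median log2 fold change was 0.77, against -0.0074 for all genes. Hhat, the acyltransferase that adds palmitate to Hedgehog proteins, had 3.60 and 4.06 at E7.5, then 8.61 and 10.8 at E8.5, a change of 1.14 in log2 units (standard error 0.16, adjusted p = 2.5e-05). Scube3, of a family of secreted proteins that help to release lipid-modified ligand, had 4.16 and 3.55 at E7.5, then 18.1 and 17.6 at E8.5, a change of 1.96 in log2 units (standard error 0.14, adjusted p = 2.1e-08). Both genes had replicates close together and stages clearly apart. Scube1, named after its values were seen, rose by 0.39 on the log2 scale (adjusted p = 0.033). Disp1, the transporter that exports the ligand, had 15 and 12.9 against 14.5 and 14.4 (adjusted p = 0.77). Scube2 and Dhh did not reach the minimum.

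Lrp2, a large endocytic receptor that binds Shh and is abundant in visceral endoderm, had 96.2 and 104 at E7.5, then 40.7 and 39.6 at E8.5, and fell by 1.30 in log2 units (standard error 0.073, adjusted p = 1.5e-09). The visceral endoderm markers fell in the same libraries, and their part in this was not tested. The co-receptors Gas1 and Cdon had log2 fold changes of -0.10 and -0.073 and were not called (adjusted p = 0.41 and 0.69).

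Of 25 signal transducers tested, 6 rose and 6 fell, shares near the 25.6% and 26.4% of all genes tested, so the counts do not set the list apart. None changed by a log2 fold change of 1, and the median was 0.10. Gpr161, a ciliary receptor that keeps the pathway low through protein kinase A, had 2.59 and 3.50 at E7.5, then 5.40 and 5.95 at E8.5, a change of 0.73 in log2 units (standard error 0.17, adjusted p = 0.0020). Dzip1, a basal body protein needed for Hedgehog signaling, rose by 0.66 (standard error 0.14, adjusted p = 0.0012). Btrc, the ubiquitin ligase adaptor that marks the Gli2 and Gli3 proteins for processing or degradation and that also acts on beta-catenin, had 58.1 and 54.0 at E7.5, then 29.6 and 26.3 at E8.5. It fell by 0.98 in log2 units (standard error 0.088, adjusted p = 2.9e-07). Stk36, the mammalian counterpart of the Drosophila kinase Fused, which in the mouse is known for motile cilia, fell by 0.63 (adjusted p = 0.0036). Sufu, the inhibitor that binds Gli proteins, named after its values were seen, had 74.8 and 78.1 against 66.6 and 65.2 and fell by 0.21 (adjusted p = 0.019).

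Further target genes were listed from several tissues, and 8 of 14 were tested. Of these, 6 rose and 1 fell, against 25.6% and 26.4% of all genes tested, with a median of 0.41. Nkx6-1, among those that rose, had 0.787 and 0.811 at E7.5 against 1.63 and 1.62 at E8.5. It reached the minimum only at E8.5, so it entered the count through the stage where it was higher. Bcl2, an inhibitor of cell death, had 2.81 and 3.04 at E7.5, then 7.92 and 8.82 at E8.5, a change of 1.25 in log2 units (standard error 0.15, adjusted p = 8.0e-06). Foxf1, a target in lateral plate and gut mesoderm that is named after its values were seen, had 28.6 and 31.4 at E7.5, then 53.0 and 51.2 at E8.5, a log2 fold change of 0.78 (adjusted p = 2.2e-06). The cyclin Ccnd2 rose by 0.68, and Ccnd1, Mycn and Nkx6-1, of which the cyclins and Mycn were likewise named afterwards, rose by 0.29, 0.19 and 0.54. Foxa2, described above, was the gene that fell. Many of these genes answer to other signals as well. The targets known from the later sclerotome and ventral neural tube had few reads. Pax1 and Nkx3-2 had 0 in the 4 libraries, Nkx2-2 had 1 at each stage, and Olig2 had at most 5 in a library. Pax9, a sclerotome factor, had 38 and 23 reads at E7.5 against 26 and 24 at E8.5 and was not called (adjusted p = 0.48). In the ventral neural tube set, Nkx6-1 had 14 and 16 reads against 31 and 31. Nkx2-9, which did not reach the minimum, had 3 and 2 against 13 and 19. Foxl1, a listed target that was also below the minimum, had 10 and 13 reads at E7.5 against 7 and 5 at E8.5.

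The primary cilium, where Smo and the Gli proteins act, was represented by 30 genes, all of them tested. Of these, 4 rose and 1 fell, against 25.6% and 26.4% of all genes tested, and the median log2 fold change was 0.027. Cep290, a protein of the ciliary transition zone, rose by 0.53 (standard error 0.11, adjusted p = 7.8e-04), and Ttbk2, a kinase that starts cilium assembly, by 0.42 (standard error 0.14, adjusted p = 0.021). B9d1, also of the transition zone, fell by 0.52 (standard error 0.10, adjusted p = 5.5e-04). The other risers, Ift52 and Dync2h1 of intraflagellar transport, named after their values were seen, rose by 0.31 and 0.41.

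The genes nearest in profile to Shh and Ptch1 were sought among genes whose mean lay within 2-fold, by the distance of centred log2 values over the 4 libraries. For Shh, with 3849 candidates, these were Megf9, Smoc2 and Ngfr, at distances of 0.0951, 0.126 and 0.131. Smoc2, a matrix protein, had 6.63 and 5.22 at E7.5, then 21.8 and 25.9 at E8.5, close to Shh in each library. For Ptch1, with 2684 candidates, they were Msi2, Lin28b and Ak4, at 0.0449, 0.0541 and 0.0812. With 4 libraries such a likeness mainly says that the stage difference is of like size.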

How the data were processed

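RNA was isolated from pooled posterior epiblasts of wild type embryos, and the authors made libraries with SMART-Seq2, which copies RNA along its length and does not keep the strand, sequenced single-end reads of 75 bases and aligned them to mm10 with STAR. The deposited signal values are read counts of genes, which the authors scaled with 1 size factor for each library. The study's methods name DESeq2 for this and the labels name edgeR. The counting program and annotation release are not given in the sources used here. Divided by the smallest step of their library, 100% of the values came out as whole reads within 0.0001.

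The test used log2(value + 1) of genes that reached a value of 1 in 2 or more libraries and was run in limma 3.58.1 under R 4.3.3 (lmFit, then eBayes with trend); the degrees of freedom were 2 for the residuals and 12.8 for the prior. Adjusted p-values follow Benjamini and Hochberg over the 13903 genes kept. A gene can reach the minimum at a single stage, and it then enters a count through the stage where it was higher. Nkx6-1, Foxj1, Foxd4, Fgf5, Tie1, Emcn and most of the tested erythroid markers were among such genes. As alternatives, edgeR 4.0.16 and DESeq2 1.42.0 were run on the recovered reads, and the pseudocount, filter, scaling and libraries were varied. The scripts were tested on simulated data. Counting intervals are exact Poisson intervals at 95%, which cover counting error only, since PCR copies are not independent molecules. Of the 53397 identifiers, 53311 matched GENCODE vM21 on GRCm38, which gave positions and exon lengths. Mosmo was found by identifier, and a marker with no value in the table was not used here. The numbers of the replicates do not pair libraries across stages.

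Genes named in the text are the 9 Hedgehog genes, those of each pathway list past an absolute log2 fold change of 1 at an adjusted p under 0.05 (otherwise the 2 largest rises and falls called), the 4 most abundant genes of each marker list and the nearest profiles. All other genes named were added after their values were seen, whether or not the text repeats this beside them. The members and lists were chosen with earlier results of these data known. Some results are not reported here.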

Additional observations from a re-analysis of the deposited data

How the results depend on the processing

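Shh, Ptch1, Gli1 and Gli3 rose under each of the 13 alternatives run, with log2 fold changes of 1.50 to 2.10, 1.15 to 1.27, 0.84 to 1.36 and 0.58 to 0.64, and Boc was called under none (-0.28 to -0.15). Hhip was no longer called with no filter on low values (0.72, adjusted p = 0.15) or without E8.5 replicate 1 (0.43); over the libraries left out in turn it ranged from 0.43 to 1.01, and the number of Hedgehog genes that rose from 4 to 5. Of those not called, Ihh changed sign in DESeq2 (0.0028) and ranged from -0.33 to 0.28 over the libraries left out, Smo with equal totals without the most abundant gene (0.0026) and from -0.11 to 0.075, and Gli2 from -0.16 to 5.8e-05. Ihh and Hhip did not reach a value of 5 in 2 libraries, so the higher minimum gives no value for them. Where a library was left out, the lone sample of its stage was assumed to vary like the others. The count of all genes higher by a log2 fold change of at least 1 was 623, and 961 with a pseudocount of 0.1, 283 with a pseudocount of 4 and 1020 in edgeR; that of genes lower was 883, and 365 with a pseudocount of 4, 519 with a minimum of 5, and 554 to 917 over the libraries left out. The pseudocount shrinks the folds of low genes, and a higher minimum tests fewer genes. A replicate block, with same-numbered libraries as pairs, left all 18 results on their side of the threshold, with Shh at 1.87; the deviations of same-numbered libraries had a correlation of -0.0025 across genes. With 34 to 106 reads per library, Ihh and Hhip carry the widest intervals of the 9.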
